A study of Rattus norvegicus with 6 samples.

Results

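The Iroquois genes Irx1, Irx2, Irx3, Irx4 and Irx5, the COUP-TF genes Nr2f1 and Nr2f2 and the T-box gene Tbx2 encode transcription factors that mark or set the identity of regions of the heart. They were taken by symbol and were 8 of the 17454 named genes of a whole-genome rat array, with 10 of its 30367 probes. They were followed across the start of the heartbeat in the heart primordium, the crescent of cardiac tissue that becomes the heart tube. Wistar rat embryos of embryonic day 10 were divided by the shape of the primordium. Primordia with a flat centre formed the pre-heartbeat group. Those with a raised centre, from embryos whose somite numbers overlapped but ran slightly higher, formed the post-heartbeat group. The study took the state of contraction from these features, on the ground of earlier ex vivo work. Strain and embryonic day were shared by the groups, and the labels give no treatment. Total RNA of each of 3 samples a group was labelled with Cy3 and hybridised to 1 array. The samples were called biological replicates, but how many primordia entered each was not given in the sources used here, so the p-values measure the spread between these 6 samples.

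Iroquois proteins are homeodomain factors whose genes lie in clusters, with Irx1, Irx2 and Irx4 in one and Irx3 and Irx5 in another. Irx4 is a ventricular factor that keeps atrial genes off in ventricular muscle, whereas Nr2f2, also known as COUP-TFII, and the related Nr2f1 act in atrial and venous muscle and respond to retinoic acid. Tbx2 is a repressor of the chamber muscle programme that acts in the atrioventricular canal and outflow tract, downstream of BMP signals. Irx3 and Irx5 take part in later conduction and repolarisation patterning, and Irx1 and Irx2 are expressed in the ventricular septum of later stages.

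Array probes of 60 bases carried these measurements, and their middle 30 bases (positions 16 to 45) are given, with no base marked, for the 3 probes behind the larger differences and for the pair of Irx2 probes that disagreed. Positions are those of the array files on rn4, and the exon or UTR at each position was not looked up.
Irx4, chr17:106463-106522, minus strand: tacaaggagaaggcatttgggttctgaagc
Irx2, chr17:744212-744271, minus strand: ttggcatagtatagcttccctatgtttgtg
Irx2, second probe, chr17:746787-746846, minus strand: gagaatccagacaaggcacaggacggcaca
Tbx2, chr10:74092920-74092979, plus strand: gggacgtgtacagcacagaatgggtattta
The GC content of the whole probe was 40.0% for Irx4, 43.3% for Tbx2 and 40.0% for the first Irx2 probe, beside 60% for the second Irx2 probe. Over all probes the median was 45%, with a 5th percentile of 35.0% and a 95th percentile of 55.0%, so of these 4 probes the second Irx2 probe was the one outside this range.

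Signals are given as log2 of the processed signal less the 75th percentile of the array, so that 0 is the level of that percentile, and values are compared only within a probe. Testing needed a signal well above background on every array of 1 or both groups, and 19299 probes met this. Of the members, 8 probes of 7 genes were tested, and Nr2f1 was not. The 6 arrays lay on 2 slides, told apart by their barcodes. The first pre-heartbeat sample shared slide 1 with the first and second post-heartbeat samples, and the remaining 3 arrays were on slide 2. The slides differed at 3148 tested probes (limma, group in the fit, adjusted p under 0.05), and the results are therefore given without and with the slide as a block.

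The signal of Irx4 was higher in the post-heartbeat group, by 2.45 fold. The pre-heartbeat arrays read 0.45, -0.20 and 0.43 and the post-heartbeat arrays 1.61, 1.67 and 1.28. Every post-heartbeat array lay above every pre-heartbeat array, and the lowest value was that of pre-heartbeat replicate 2. The means were 0.23 ± 0.37 and 1.52 ± 0.21 (SD, n = 3 a group), a log2 difference of 1.29 (SE 0.22, 95% confidence interval 0.77 to 1.82). The 10 spots of this probe had an SD between 0.0275 and 0.121 within an array, below the spread between arrays of a group. The limma p was 6.4e-04 and the Benjamini-Hochberg adjusted p over all tested probes was 0.109, so the call was missed. With the slide as a block the difference was 1.18 (SE 0.19) and passed, at a limma adjusted p of 0.0269. The difference was 1.19 on slide 1 and 1.17 on slide 2. The two-sided exact permutation p was 0.1, the smallest that 3 arrays against 3 can give.

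Irx2 was also higher in the post-heartbeat group at its brighter probe, by 2.50 fold, but with a wide spread. Its pre-heartbeat values were -1.14, -2.91 and -1.79 and its post-heartbeat values -0.37, -0.54 and -0.97. The groups did not overlap, and most of the spread came from the pre-heartbeat arrays. The log2 difference was 1.32 (SE 0.43, 95% confidence interval 0.30 to 2.34) with a limma p of 0.0181 and an adjusted p of 0.476. With the slide as a block it was 1.03 (SE 0.30, limma adjusted p 0.205), and it was 0.69 on slide 1 and 1.38 on slide 2. Without pre-heartbeat replicate 2 it was 0.84. The second Irx2 probe, which lies 5′ of the first on the minus strand, read -5.24, -5.15 and -4.83 before and -5.09, -5.12 and -5.13 after heartbeat initiation. These values overlapped and differed by -0.04 (SE 0.15, 95% confidence interval -0.41 to 0.33, limma adjusted p 0.948), so the probes of Irx2 disagreed and the gene's change rests on 1 of them.

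Tbx2 had the widest difference of the member means, 2.74 fold higher in the post-heartbeat group, and the groups overlapped. Its pre-heartbeat values were -1.63, -3.64 and -2.34 and its post-heartbeat values -0.76, -0.76 and -1.71. Pre-heartbeat replicate 1, on slide 1, lay just above post-heartbeat replicate 3, on slide 2. The log2 difference was 1.46 (SE 0.52, 95% confidence interval 0.23 to 2.69), the limma p 0.0266 and the adjusted p 0.569. Within each slide every post-heartbeat array was above every pre-heartbeat array, by 0.87 in mean on slide 1 and 1.27 on slide 2. With the slide as a block the difference was 1.07 (SE 0.32, limma adjusted p 0.217). Leaving out pre-heartbeat replicate 2 brought it to 0.90 and leaving out pre-heartbeat replicate 1 to 1.91.

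**Figure D1:**
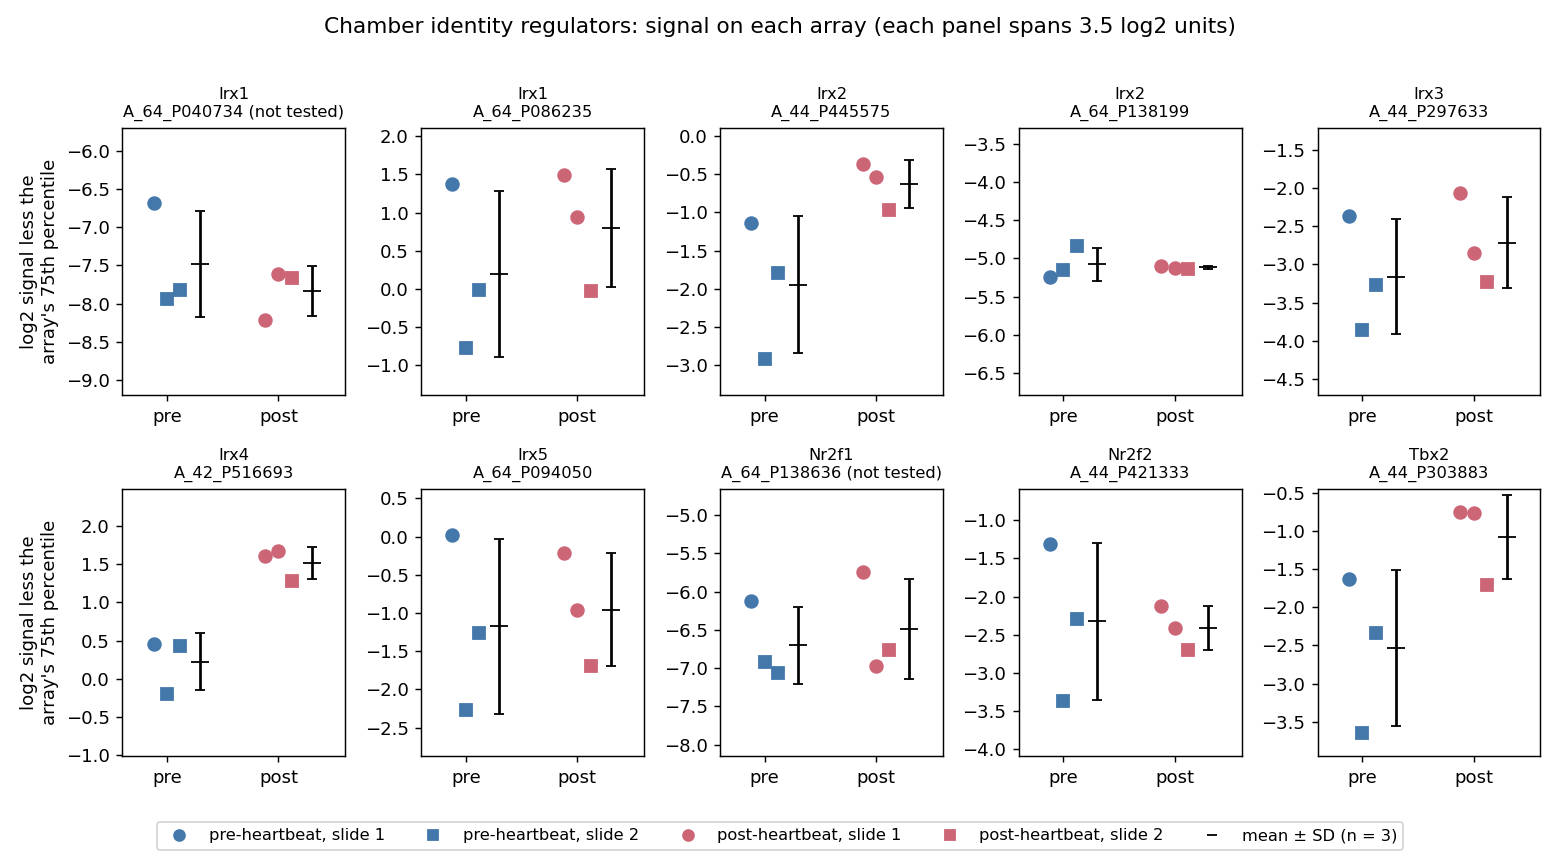
Signal of the 10 member probes on each array, as log2 less the array's 75th percentile, with circles for slide 1, squares for slide 2 and the mean ± SD of 3 arrays beside each group; every panel spans the same number of log2 units. Irx4 and the brighter Irx2 probe have separate groups, Tbx2 overlaps by 1 array, and the other probes overlap.

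Irx1, Irx3 and Irx5 did not differ beyond the spread between arrays. Irx1 at its brighter probe (chr17:1396345-1396404, plus strand) read 1.37, -0.77 and -0.01 before and 1.49, 0.94 and -0.03 after heartbeat initiation. The highest values of each group were on slide 1, and the groups overlapped almost wholly. The difference was 0.61 (SE 0.59, 95% confidence interval -0.80 to 2.01, limma adjusted p 0.866) and was 0.10 with the slide as a block (95% confidence interval -0.48 to 0.69). Its second probe (chr17:1396659-1396718, plus strand) was well above background on 1 pre-heartbeat array and on 0 post-heartbeat arrays and was not tested.

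Irx3 (chr19:16345722-16345781, plus strand) read -2.36, -3.85 and -3.27 in the pre-heartbeat group and -2.06, -2.85 and -3.24 in the post-heartbeat group. The groups overlapped, and the array of each group with the highest value was on slide 1. The difference was 0.45 (SE 0.44, 95% confidence interval -0.58 to 1.48, limma adjusted p 0.866), and 0.12 with the slide as a block (95% confidence interval -0.48 to 0.71).

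Irx5 (chr19:15747720-15747779, minus strand) read 0.02, -2.26 and -1.27 before and -0.21, -0.96 and -1.70 after heartbeat initiation. Both the highest and the lowest value were pre-heartbeat. The difference was 0.21 (SE 0.61, 95% confidence interval -1.22 to 1.65, limma adjusted p 0.926) and changed sign to -0.27 with the slide as a block (95% confidence interval -1.01 to 0.47). Without the block, the intervals of Irx1 and Irx5 leave room for a change of more than 1.5 fold in either direction.

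Nr2f2 (chr1:125280995-125281054, minus strand) gave no difference that passed the test. It read -1.31, -3.36 and -2.29 in the pre-heartbeat group and -2.12, -2.41 and -2.69 in the post-heartbeat group. All 3 post-heartbeat values lay inside the range of the pre-heartbeat ones. The difference was -0.08 (SE 0.48, 95% confidence interval -1.22 to 1.05, limma adjusted p 0.964), and -0.41 with the slide as a block (95% confidence interval -1.18 to 0.36). On slide 1 the post-heartbeat mean was lower by 0.95 on the log2 scale, and on slide 2 it was higher by 0.13. Nr2f1 (chr2:5766132-5766191, minus strand) was at the edge of detection, with -6.12, -6.92 and -7.06 before and -5.75, -6.97 and -6.76 after heartbeat initiation. It was well above background on 1 pre-heartbeat and 2 post-heartbeat arrays, so no fold is given.

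**Figure D2:**
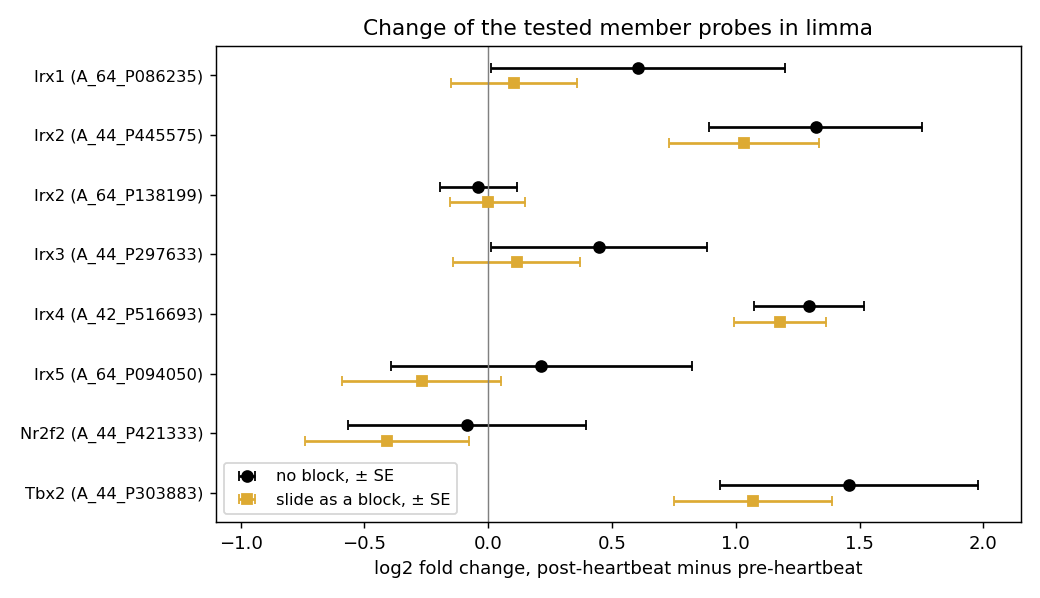
Log2 fold change of the 8 tested member probes (post-heartbeat minus pre-heartbeat, points with SE bars), without a block and with the slide as a block. Irx4 has the smallest change between the fits relative to its size, and Irx5 moves from 0.21 to -0.27.

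Counted together with the brightest tested probe of each gene, 6 of the 7 tested members had a log2 fold change above 0, as did 46.9% of all genes, and few passed a test. In limma without a block, 0 of 7 member genes were called higher and 0 lower at an adjusted p under 0.05, beside 0.17% higher and 0.0341% lower of the 11734 genes tested. At an unadjusted limma p under 0.05, Irx2, Irx4 and Tbx2 were higher and no member was lower, beside 4.87% and 3.33% of all genes. Once the slide was blocked, Irx4 was called higher and no member lower, beside 1.56% and 0.588% among the genes tested. The same block with an unadjusted limma p under 0.05 gave Irx2, Irx4 and Tbx2 as higher and no member as lower, where the shares over the genes tested were 6.48% and 4.58%. The selection of the study's methods (at least 1.5 fold, with the Tukey HSD p under 0.05 before any adjustment) took Irx4, with a Tukey HSD p of 0.0062 in these 6 arrays, and no other member, beside 2.45% of all genes selected as higher and 1.22% as lower. The groups did not overlap, with higher post-heartbeat values, for Irx2 and Irx4, and for no member with lower ones, beside 6.56% and 7.04% of all genes. Within both slides Irx2, Irx4 and Tbx2 were higher with no overlap, and no member was lower with no overlap, beside 13.8% and 14.4% of all genes. The median log2 fold change of the 7 genes was 0.61 without and 0.12 with the slide as a block, beside -0.02 and -0.01 over all genes.

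The members also varied with the slide. All 7 tested genes had their lowest value on pre-heartbeat replicate 2, which was so for 23.6% of all genes tested, and all 7 were higher on slide 1 than on slide 2 in mean, as were 43.9% of all genes. With the group in the fit, slide 1 was above slide 2 by 1.51 (SE 0.26, limma adjusted p 0.00855) for Irx1. The slide difference was 1.45 (SE 0.32, limma adjusted p 0.0222) for Irx5 and 1.16 (SE 0.32, limma adjusted p 0.0436) for Tbx2. For Irx3 it was 0.99 (SE 0.26, limma adjusted p 0.0367). These 4 of 7 passed, beside 7.29% of all genes higher on slide 1. Irx2 and Nr2f2 had differences of 0.87 and 0.97 that missed the threshold (limma adjusted p 0.0883 and 0.0843), and Irx4 had 0.35 (limma adjusted p 0.228). Slide and array were not independent of the sample, so the slide, with any step that went with it, and the tissue of its samples cannot be told apart.

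**Figure D3:**
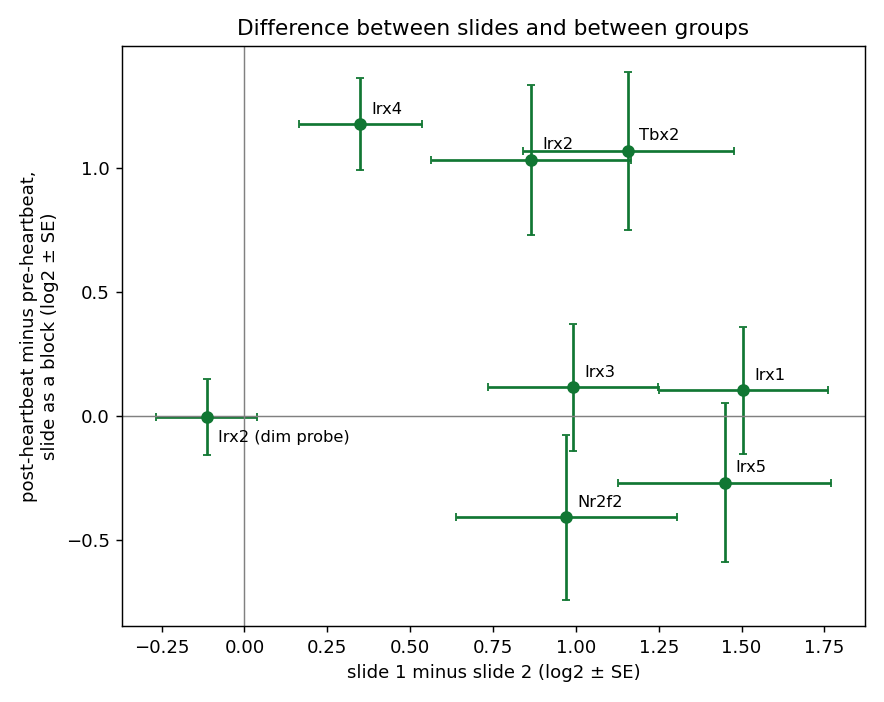
Difference between slides (horizontal axis, slide 1 minus slide 2) against the difference between groups with the slide as a block (vertical axis, post-heartbeat minus pre-heartbeat), both in log2 with SE bars, for the 8 tested member probes. Irx4 has a group difference of 1.18 with a slide difference of 0.35, whereas Irx1, Irx3 and Irx5 have slide differences of 0.99 to 1.51 with group differences between -0.27 and 0.12. Tbx2 and the brighter Irx2 probe are high on both axes, with slide differences of 1.16 and 0.87 and group differences of 1.07 and 1.03.

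The makeup of the samples was read from lists of cell type markers, since in a whole tissue fewer cells of a type and less RNA per cell cannot be told apart. All 11 cardiac muscle markers were tested, and their mean signal ran from 4.0 to 4.53 before and from 4.98 to 5.09 after heartbeat initiation, with no overlap and 11 of 11 markers higher in mean. The labelled tissue thus held its defining muscle genes on every array. The second heart field and pharyngeal markers (8 of 9 tested) had a mean of -2.89, -3.74 and -3.54 in the pre-heartbeat group and of -2.86, -3.42 and -3.90 in the post-heartbeat group. The first array of each group, both on slide 1, had the highest mean of this list. Single markers did not all follow the mean. Tbx1 ran from -3.28 on pre-heartbeat replicate 2 to 0.17 on post-heartbeat replicate 1. Isl1 was instead lowest in its group on each of these first arrays, at -0.02 and -0.31. The probes used for Irx1, Irx2, Irx3, Irx5, Nr2f2 and Tbx2 were highest on the first array of each group, though Tbx2 read almost alike on both post-heartbeat arrays of slide 1. Irx4 was highest on post-heartbeat replicate 2.

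Yolk sac endoderm markers (8 of 9 tested) had their lowest means on post-heartbeat replicate 3 (-0.255) and pre-heartbeat replicate 2 (-0.0414), both on slide 2, and reached 1.29 on pre-heartbeat replicate 1. Paraxial mesoderm markers (6 of 10 tested) were also lowest on these arrays, at -1.17 and -1.32, and highest on pre-heartbeat replicate 1 at -0.333. Proepicardial markers (3 of 6 tested) ranged from -5.50 to -4.58 before and from -4.79 to -4.37 after heartbeat initiation, with Upk3b and Sema3d not well above background on any array. Of the tested ones, Tbx18 and Msln entered through the post-heartbeat group, being well above background on 2 and 1 pre-heartbeat arrays. The filter thus favours a higher post-heartbeat mean of this list. Wt1, well above background on 1 pre-heartbeat and 0 post-heartbeat arrays, was not tested. Endothelial and endocardial markers (8 of 9 tested) ranged from -0.955 to -0.497 in the pre-heartbeat group and from -1.06 to -0.744 in the post-heartbeat group. Neural ectoderm markers (5 of 13 tested) ranged from -2.39 to -1.79 before and from -2.85 to -2.41 after, with no overlap, and Zic1, Six3 and Rax were not well above background on any array. Surface ectoderm and neural crest markers (5 of 9 tested) ranged from -2.50 to -1.84 and from -2.97 to -2.44. The part of these differences in the members' values was not tested.

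**Figure D4:**
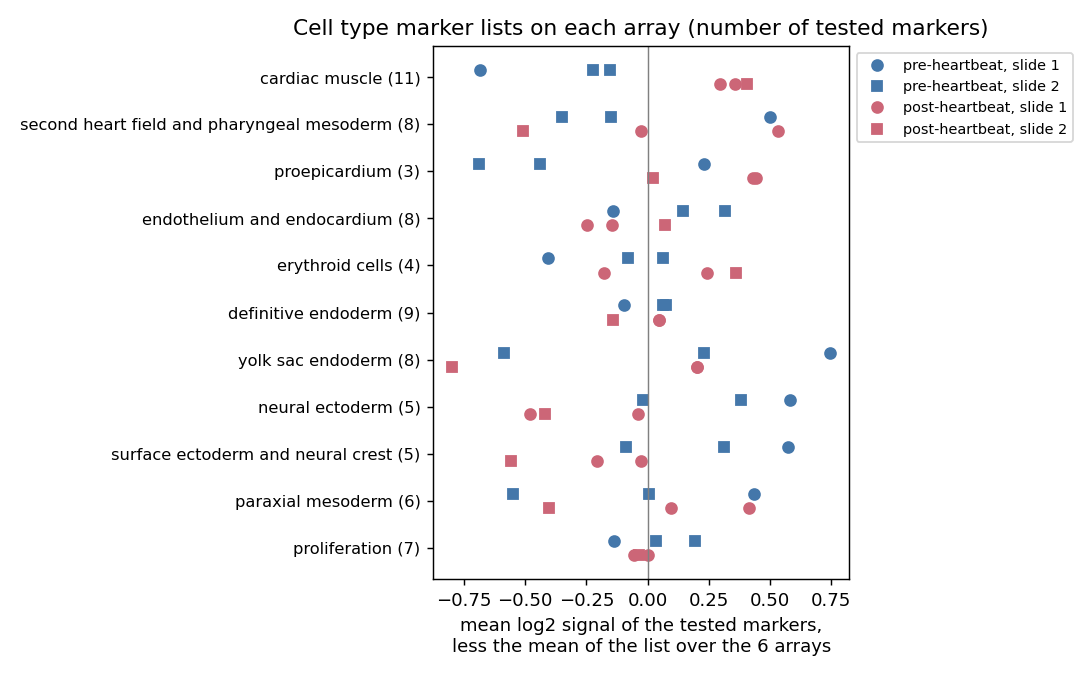
Mean log2 signal of the tested markers of each cell type list on each array, less the mean of that list over the 6 arrays (horizontal axis), with the number of tested markers in brackets, colours for groups and symbols for slides. Cardiac muscle markers, higher after heartbeat initiation, separate the groups. Neural ectoderm markers, lower, separate them only narrowly, with nearest list means, before centring, of -2.39 (pre-heartbeat replicate 2) and -2.41 (post-heartbeat replicate 1). Second heart field, yolk sac endoderm and paraxial mesoderm markers spread within each group.

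Set against the mean of the cardiac muscle markers of the same array in place of the 75th percentile, a comparison added after the values were seen, Irx4 was higher by 0.59 (SE 0.32, limma adjusted p 0.138) and the groups overlapped. On that scale Irx2 was higher by 0.62 (limma adjusted p 0.348) and Tbx2 by 0.75 (limma adjusted p 0.326). Irx1, Irx3 and Irx5 changed sign to -0.10, -0.26 and -0.49. The scale itself moved, since the muscle markers were higher by 0.70 in mean and the median of all tested probes was -0.74 on it. Relative to that median the 3 genes with higher values lay higher, and the other tested members lay between it and 0 except Nr2f2 at -0.79 and the second Irx2 probe at -0.75. That probe was the one member probe past the threshold on this scale (limma adjusted p 0.0107), in the lower direction and close to the median of all probes.

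The relatives of the members were a chosen list of 13 other genes of the Iroquois, COUP-TF and T-box families, which need not hold every gene of them. Of 13, 9 were tested, and 0 passed in either direction in limma, with or without the slide as a block, against the background shares given above. Their median log2 fold change was 0.45, and 0.06 with the slide as a block. The selection of the methods took 1 of them, Tbx18, a T-box factor of the sinus horns and proepicardium, which was higher by 1.61 (SE 0.43, limma adjusted p 0.314) with -5.50, -7.18 and -5.61 before and -4.54, -4.49 and -4.44 after heartbeat initiation. It was well above background on 2 of 3 pre-heartbeat arrays and so entered the test through the post-heartbeat group, and the lowest value, on pre-heartbeat replicate 2, weighs on this difference. Tbx3, the closest relative of Tbx2, differed by 0.11 (SE 0.16, limma adjusted p 0.869). Irx6 was well above background on 1 array of each group and was not tested.

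Genes of the ventricular chamber, among which Irx4 was listed, were mostly higher after heartbeat initiation. Of 11 tested, 2 rose in limma and 6 with the slide as a block, and the selection of the methods took 6, beside 0.17%, 1.56% and 2.45% of all genes. Irx4 itself is among the 6 of both counts. This list, like the other gene lists, was chosen with earlier results of these data known. The shares are therefore a background only, and enrichment was not tested. The median log2 fold change was 0.69. The cardiac muscle markers, which share Myh7 with this list, had a median of 0.67. Of them 0 of 11 passed in limma without a block, 4 of 11 were higher with the slide as a block and 6 of 11 were in the selection. A difference between the lists was not tested. Myl2, the ventricular regulatory light chain of myosin, rose by 3.46 (SE 0.18, limma adjusted p 0.00451), and Pln, which encodes the calcium pump inhibitor phospholamban, rose by 2.39 (SE 0.18, limma adjusted p 0.0179). Myl3, the ventricular essential light chain, was higher by 1.22 (SE 0.16) and passed with the slide as a block (limma adjusted p 0.0182). Irx4 was the one transcription factor among the 6 genes that passed with the block. Other regulators of this list did not follow as a set. Of the 11 genes 9 had a log2 fold change above 0, and Hey2 and Cited1 lay below it, at -0.35 and -0.64. Hand1 was at 0.22 and Lbh at 0.56, and none of these passed in either fit.

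Genes of the atrial and venous pole, which Nr2f1 and Nr2f2 were listed with, gave 1 rise in limma among 15 tested and 3 with the slide as a block, and 5 in the methods' selection, beside the same shares of all genes. This list shares Myl4, Myl7 and Myh6 with the cardiac muscle markers. Their median log2 fold change was 0.60. Nppa, which encodes atrial natriuretic peptide, rose by 1.84 (SE 0.15, limma adjusted p 0.0199). Myl4 and Myh6, atrial myosin chains that the whole early heart expresses, were higher by 1.0 and 0.92 and passed with the slide as a block (limma adjusted p 0.0324 for each). No gene of this list fell in either fit, and the difference between it and the ventricular list was not tested.

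The atrioventricular canal list, which held Tbx2, had 13 tested genes and 0 calls in limma in either direction, and a median log2 fold change of -0.08. Snai2, a zinc finger factor of migrating mesenchyme, fell by 1.21 on the log2 scale with the slide as a block (limma adjusted p 0.0216). It was also the one gene of this list in the methods' selection, which has no block, beside 1.22% of all genes selected as lower. The 9 genes listed as repressed by Tbx2 in the heart were all tested. Of these, Nppa was the one that passed in limma, and it rose. With the slide as a block 2 were called higher, Nppa again among them, and 1 lower, beside 1.56% and 0.588% of all genes. In that fit Smpx, a small protein of striated muscle, also rose, by 0.84 (limma adjusted p 0.0430). Gja1, which encodes the gap junction protein connexin 43, fell by 0.84 (limma adjusted p 0.0284). The methods' selection, without a block, took 2 as higher, Nppa and Smpx, and 1 as lower, Gja1, beside 2.45% and 1.22% of all genes. The median of this list was 0.04, and -0.06 with the slide as a block, and its members thus lay on both sides of 0.

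Signals upstream of the members gave 0 calls in limma without a block, where 0.17% of all genes were called higher and 0.0341% lower. With the slide as a block these shares were 1.56% and 0.588%. Of 18 tested genes of retinoic acid synthesis, breakdown and response, 0 passed in limma, and with the slide as a block 1 was called lower. This was Cyp26a1, which breaks down retinoic acid, and it fell by 0.82 in that fit (limma adjusted p 0.0310). The methods' selection, without a block, also took Cyp26a1 as lower and no other gene of the list, beside 2.45% of all genes higher and 1.22% lower. The list's median was 0.07, and -0.02 with the slide as a block. Of 15 tested BMP ligands and targets, 0 passed in limma, and the slide block called 1 lower, Grem1, a secreted BMP antagonist, by 1.89 (limma adjusted p 0.0299). Grem1 was also the one gene of this list in the methods' selection, as lower, beside the same shares. The median of the BMP list was 0.08. The core cardiac transcription factors, 12 tested, gave 0 calls in both fits, with a median of 0.28 and 10 of 12 higher in mean. Over all 11734 genes limma called 20 higher and 4 lower without a block.

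The genes with the most similar profile to a member were found by the root mean square difference between log2 values centred on their mean over the 6 arrays, among 11152 genes well above background on every array. For Irx2 the nearest were Samd4a at 0.126 and Col2a1, a cartilage collagen, at 0.158. Tbx2 was nearest to Irx2 itself at 0.182, followed by Myh8, a perinatal myosin heavy chain, at 0.207.

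Irx1 was nearest to Zfp503 at 0.137 and Dipk1b at 0.144, and Irx5 to Cxcl14, a chemokine, at 0.112 and Fbxl19 at 0.124. Irx3 was nearest to Lypd1 at 0.0873 and Mdfi, an inhibitor of myogenic factors, at 0.10, and Nr2f2 to Cables1 at 0.131 and Wwc1 at 0.149. Among the members, Irx1 and Irx5, of separate gene clusters, differed by 0.220, and Irx4 and Nr2f2 were the pair farthest apart at 0.810. These 6 values share slides and samples, and the distances are descriptions.

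The promoters of Irx4 and Irx2, cluster neighbours with separate groups, are shown for the sequence before their start sites (250 bases, RefSeq, build GRCr8, another build than that of the probes; 5 of the 8 members had an entry). Both were read 5′ to 3′ on the gene's strand, with motif matches in capitals.
Irx4, chr1:31868090-31868339, minus strand: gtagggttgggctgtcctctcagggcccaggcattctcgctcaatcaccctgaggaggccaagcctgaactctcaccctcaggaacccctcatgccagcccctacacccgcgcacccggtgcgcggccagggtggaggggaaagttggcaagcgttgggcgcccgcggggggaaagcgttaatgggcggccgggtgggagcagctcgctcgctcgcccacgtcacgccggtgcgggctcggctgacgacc
Irx2, chr1:32494931-32495180, minus strand: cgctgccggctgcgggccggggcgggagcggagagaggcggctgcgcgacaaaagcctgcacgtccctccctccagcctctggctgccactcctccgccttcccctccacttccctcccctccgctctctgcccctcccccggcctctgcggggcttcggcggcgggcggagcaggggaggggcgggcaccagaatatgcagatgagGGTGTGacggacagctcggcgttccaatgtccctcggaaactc
The motifs were searched on both strands. The T-box half-site, spelled GGTGTG, was held by 15.4% of 33469 promoters of this length. The COUP-TF half-site, spelled AGGTCA, was held by 14.1% of these promoters. A site for GATA factors, searched as AGATAA, was present in 10.3% of them. The letters TATAAA, of the core promoter box, were found in 12.9%. Irx2 held 1 match, to the T-box half-site, 43 bases before its start, and Irx4 held 0. The GC content was 69.2% for Irx4, with 22 CG dinucleotides, and 71.6% for Irx2, with 23, beside a median of 51.2% and 5 over all promoters. A match describes the letters of the sequence, and binding was not measured.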

How the data were processed

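Gene expression was measured on 6 one-colour Agilent 8x60K rat arrays, 3 pre-heartbeat and 3 post-heartbeat. The authors quantified the scans with Agilent Feature Extraction 10.7.3.1 and deposited spot intensity values, background-subtracted and detrended but not normalized between arrays, together with a table of ratio values (75th percentile shift and median baseline in GeneSpring, per the study's methods). Once a constant offset of each array was removed, the ratios gave, for 100% of 30363 probes, array-to-array differences that lay within 0.01 log2 of the signal's own. The median log2 ratio of an array ran from -0.0964 to 0.14. Of 58717 non-control spots, 39375 to 41327 were well above background on each array and 0 were saturated. The 75th percentile of the signal ran from 1146 to 1702. The number of arrays limits the precision.

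Processed signals were taken as log2 less the array's 75th percentile over non-control spots. Spots marked as outliers were dropped, and a probe's spots averaged. A probe counted as well above background on an array where at least 0.5 of its spots were, and was tested where this held for all 3 arrays of a group. limma 3.58.1 in R 4.3.3 (package data.table, version 1.17.8) was fitted to 19299 probes with Benjamini-Hochberg adjustment at 0.05, and with the slide as a block. 2 tested probes lacked a value on an array. Two-sided exact permutation tests were run over the 6 arrays, and the code was tested on simulated data. A gene was represented by its brightest tested probe. Gene names came from the files and, for 18006 probes, through the transcript accession, which named 6 members.

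The members and the gene lists were chosen with earlier results of these data known. Named genes were the members, the family relatives and up to 4 genes of each other list that passed limma or the methods' selection, and the 2 nearest profiles of each member (those of Irx4 are not reported here). Tbx3 and Irx6 were named as relatives, and Hey2, Cited1, Hand1 and Lbh as genes of the ventricular list, although they did not pass. Alternatives tried were other percentiles, normexp with an offset of 50, quantile normalization, the authors' ratios, other filters, blocks by slide and replicate number, an intensity trend, leaving out each array, a mean over a gene's probes and other tests or folds.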

Additional observations from a re-analysis of the deposited data

How the results depend on the processing

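Over 17 settings Irx4 ranged from 1.08 to 1.41 (limma adjusted p 0.0269 to 0.473), Irx2 from 0.84 to 1.73 and Tbx2 from 0.90 to 1.91, and Irx4 passed in 1, the slide block (1.18). Of the alternative values of member fold changes, 129 kept direction and side of the threshold and 6 turned, before the muscle-marker scale was added. Irx5 turned to -0.27 with the slide block, -0.33 without pre-heartbeat replicate 2 and -0.16 without post-heartbeat replicate 1. Nr2f2 turned to 0.42 without pre-heartbeat replicate 1 and 0.058 without post-heartbeat replicate 3, and the second Irx2 probe to 0.082 without pre-heartbeat replicate 3. Leaving out arrays gave -0.33 to 0.81 for Irx5, -0.61 to 0.42 for Nr2f2 and -0.12 to 0.082 for that probe. On the muscle-marker scale Irx1, Irx3 and Irx5 were -0.10, -0.26 and -0.49, and the second Irx2 probe passed at -0.75 (limma adjusted p 0.0107), where the median of all probes was -0.74. With the slide block the median of the genes listed as repressed by Tbx2 was -0.061 and that of the retinoic acid list -0.018. The cause was not tested.

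Of all probes, limma called 23 higher and 4 lower. The higher count was 12 with the percentile over detected probes, 43 with normexp, 11 with quantile normalization, 10 with the authors' ratios, 1 without a filter, 223 with the slide block, 38 with an intensity trend and 0 with adjusted Tukey HSD p-values (smallest 0.101). The lower count was 7 with normexp, 0 without a filter, 89 with the slide block, 7 with a trend and 0 with the adjusted Tukey HSD test. Leaving out arrays gave 0 to 1 higher and 0 to 1 lower. At an unadjusted limma p under 0.05 the counts were 754 higher and 598 lower. The methods' selection took 365 higher and 222 lower. It took 203 and 78 with normexp, 149 and 83 at 2 fold, 428 lower without a filter and 347 lower with the limma p. Leaving out arrays gave 238 to 397 higher and 123 to 352 lower. Of members, the slide block called 1 higher in limma, and the selection took 3 with the limma p and 1 to 2 with an array left out.

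Deviations of same-numbered arrays correlated at 0.65, -0.28 and 0.49, and 3 of 6 arrays correlated best with their own number in the other group. Arrays numbered 1 shared a slide, as did those numbered 3, whereas those numbered 2 did not. These values therefore cannot say whether the replicate number paired the samples. The replicate block gave 95 higher and 49 lower probes in limma, 0 members in the selection and an adjusted p of 0.0546 for Irx4.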
